A study of Quercus robur with 12 samples.

Results

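The miR171 family of pedunculate oak (Quercus robur) was followed in root tips through its 5 named members, qrb-miR171a to qrb-miR171e. They are the rows of the deposited count table whose name begins with qrb-miR171, 5 of 75 miRNAs in all and 5 of the 51 that carry the name of a known family. Small RNAs had been sequenced from the meristematic zone of lateral roots (LR) and taproots (TR) under drought stress (DS) and full watering (CT), giving LR-DS, LR-CT, TR-DS and TR-CT with 3 libraries each. All seedlings were wild type, about a year old and acclimatized for 8 weeks. The DS plants then had 4 weeks with soil moisture lowered to 25% of the control level, and the CT plants stayed watered. A library pooled 10 to 15 root tips. Seedlings were raised either in containers and transplanted or from acorns sown in place, and the labels do not say which a library came from, so cultivation and drought cannot be told apart.

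miR171 is an old plant miRNA family that guides cleavage of the transcripts of GRAS transcription factors of the HAIRY MERISTEM and SCARECROW-LIKE type. In Arabidopsis these targets keep meristem cells undifferentiated and take part in root growth and in branching. Members of a miRNA family come from separate loci, and small differences in the mature sequence can change which transcripts are bound.

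The mature sequences of the 5 lettered members were not given in the sources used here. The study's target table lists 3 sequences under the unlettered family name. They are shown, with bases 2 to 8 (called the seed here) in capitals, because they tell which sequence-named rows of the count table resemble them. Which strand of the precursor they come from, and whether that strand guides cleavage, was not tested here.
miR171 sequence 1: cGUGAUAUugauuuggcucuuc
miR171 sequence 2: cGAUGUUGgugagguucaauc
miR171 sequence 3: uGUGAUAUugguacggcucguc
sequence-named row of the count table: cGUGAUAUugguucggcucuuc
Sequences 1 and 3 shared the seed GUGAUAU and 17 of 22 bases. Sequence 2 had another seed, GAUGUUG, and at best 12 of 20 aligned bases in common with sequence 3. Of the 24 rows named only by a sequence, 1 reached the minimum of 17 identical bases: it shared the seed and 20 of 22 bases with sequence 1, and 19 of 22 with sequence 3. The next closest of those rows had 11 identical bases. That row is described below but was not counted as a member.

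The same table pairs these sequences with 4 transcript sites. The paper reports that its targets were identified by degradome sequencing, and that cleavage evidence was not re-examined here. The sites are shown because they are the ones listed there for the family, with the bases opposite the seed in capitals.
Qrob_T0496000.2, site of sequence 1: cgggggccaacaucaAUAUCAGa
Qrob_T0080450.2, site of sequence 1: gaagagcccgaucaAUGUUgAUg
Qrob_T0064440.2, site of sequence 2: ucgagaaccucacCAACCUCg
Qrob_T0550890.2, site of sequence 3: ggcgagaggugccaAUAUCGCu
The sites held between 16 and 17 Watson-Crick pairs, with 0 to 4 G-U pairs and 1 to 5 mismatches. Each site of sequence 1 also had 1 gap, which in Qrob_T0080450.2 lies within the stretch opposite the seed. Of the 4 transcripts, 2 carried an annotation in the study's gene table, as a dehydrin Xero 2-like gene and as the transcription factor KUA1. Neither is a GRAS gene, and the other 2 were not annotated in the sources used here.

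Family counts were 2358, 2339 and 913 in LR-DS, 3295, 4140 and 3973 in LR-CT, 2448, 623 and 4818 in TR-DS, and 1775, 1249 and 3675 in TR-CT, in the order of replicates 1 to 3. Among the 23 named families miR171 ranked between 3 and 8 in a library and held between 1.03% and 7.26% of the named counts. The libraries totalled 160039 to 1267473 counts, and a single 16-nt row took between 34.1% and 89.1% of them. That row held 83.7% to 86.2% of the counts in LR-DS, against 34.1% to 60.6% in LR-CT. It moves every value that is scaled to the library total. Shares within the family do not depend on it.

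The make-up of the family differed widely between libraries. qrb-miR171d was the leading member in 5 libraries, qrb-miR171a in 4 and qrb-miR171c in 3, whereas qrb-miR171b and qrb-miR171e led in none. qrb-miR171d made up 64.5%, 69.4% and 18.8% of family counts in LR-DS, against 2.55%, 4.15% and 4.40% in LR-CT. The LR groups did not overlap. For levels, LR-DS lay wholly above LR-CT for 14.7% of all 75 miRNAs. In taproots the same member made up 86.4%, 11.2% and 92.1% in TR-DS, against 2.31%, 0.560% and 76.3% in TR-CT. Here the groups overlapped, because TR-CT replicate 3 was rich and TR-DS replicate 2 poor in qrb-miR171d. Both libraries were kept under their labels.

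**Figure D1:**
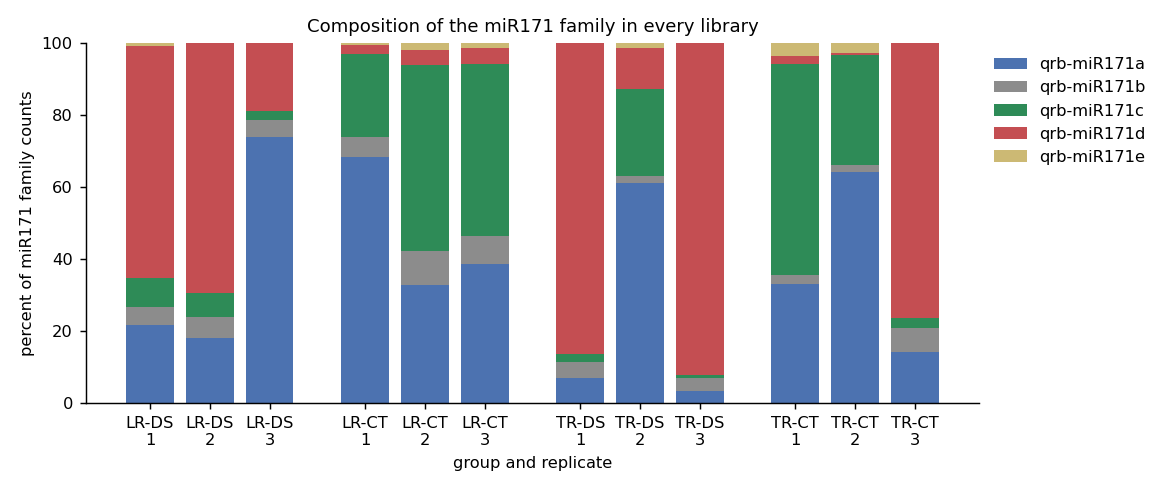
Stacked bars give the percent of miR171 family counts taken by each member (y axis) in each of the 12 libraries (x axis, group and replicate). qrb-miR171d filled 18.8% to 69.4% of the bars of LR-DS and 2.55% to 4.40% of those of LR-CT, while TR-CT replicate 3 (76.3%) and TR-DS replicate 2 (11.2%) stand apart from the other taproot bars of their groups.

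qrb-miR171c took up most of what qrb-miR171d did not, together with qrb-miR171a. qrb-miR171c made up 7.93%, 6.58% and 2.74% of the family in LR-DS, against 23.1%, 51.5% and 47.6% in LR-CT. In taproots its share was 2.04%, 24.1% and 0.851% in TR-DS, against 58.4%, 30.4% and 2.83% in TR-CT. The lateral root groups were again apart and the taproot groups overlapped. A larger share of qrb-miR171d leaves less for qrb-miR171c, so the separations of these members are not independent. How often shares in other families separated LR-DS from LR-CT was not counted. For levels, LR-DS lay wholly below LR-CT for 32% of all miRNAs. qrb-miR171a ranged from 18.1% to 73.9% in LR-DS, 32.9% to 68.3% in LR-CT, 3.38% to 61.2% in TR-DS and 14.1% to 64.2% in TR-CT. qrb-miR171b never passed 9.47% of the family. qrb-miR171e never passed 3.66%.

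The ratio of qrb-miR171d to qrb-miR171c within a library needs no scaling. On the log2 scale it was 3.02, 3.39 and 2.76 in LR-DS, against -3.17, -3.63 and -3.43 in LR-CT. All 3 stressed lateral root libraries therefore held more qrb-miR171d, and all 3 watered ones more qrb-miR171c. In taproots the log2 ratio was 5.39, -1.09 and 6.74 in TR-DS, against -4.64, -5.66 and 4.75 in TR-CT. This pair was chosen after its values were seen, so the ratio is given without a test.

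**Figure D2:**
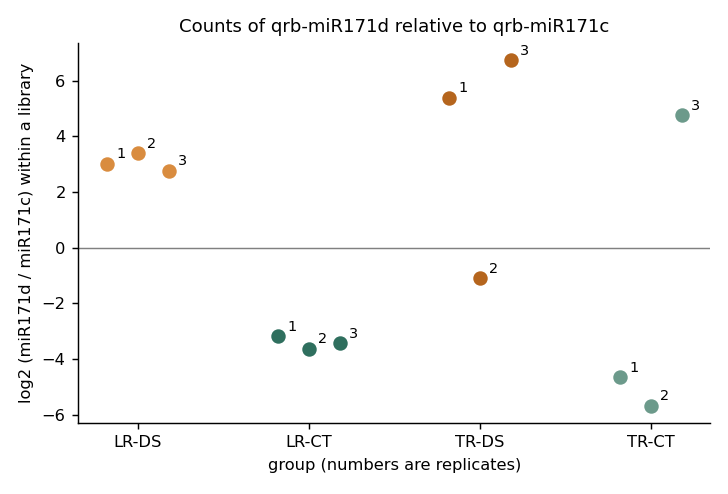
Each point is the log2 ratio of qrb-miR171d to qrb-miR171c counts (y axis) in 1 library, by group (x axis), with the replicate number beside it. LR-DS lay between 2.76 and 3.39 and LR-CT between -3.63 and -3.17, while TR-DS replicate 2 (-1.09) and TR-CT replicate 3 (4.75) lay on the other side of 0 from the rest of their groups.

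The odds of a member against the rest of the family were compared between conditions within root type, over the 6 stressed and 6 watered libraries. The log2 odds of qrb-miR171d were 4.74 higher under drought and those of qrb-miR171c 3.16 lower (two-sided exact permutation tests over 400 arrangements, p = 0.025 and p = 0.03). Adjusted over the 78 tests made on 39 named miRNAs of 11 families, both reached 0.234, so neither passed the threshold of 0.05. Before adjustment, p was 0.05 or lower for 15.4% of the 39 miRNAs in the drought contrast, qrb-miR171d and qrb-miR171c included. Because each member is set against the rest of the family, a larger count of qrb-miR171d lowers the odds of the others. The results for qrb-miR171d and qrb-miR171c are therefore not independent. The log2 odds of qrb-miR171a, qrb-miR171b and qrb-miR171e differed by -1.18, -0.30 and -3.27, with exact permutation p-values of 0.305, 0.42 and 0.11. Taken alone, lateral roots gave a difference of 4.72 for qrb-miR171d and of -3.57 for qrb-miR171c, each with an exact permutation p of 0.1, the smallest that 3 against 3 libraries allow. Taproots gave 4.77 and -2.76, each with an exact permutation p of 0.2. Without TR-CT replicate 3 the difference over both root types was 6.08 for qrb-miR171d and -3.95 for qrb-miR171c, each with an exact permutation p of 0.01. Without TR-CT replicate 2 it was 3.82 with an exact permutation p of 0.08 for qrb-miR171d. The p-values of these left-out fits are not adjusted. TR-CT replicate 3 was singled out with its qrb-miR171d values known, so the values without it are no independent support.

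Between root types, over 6 libraries each, the smallest exact permutation p was that of qrb-miR171b. The log2 odds of qrb-miR171b were 0.95 higher in lateral roots than in taproots, at -3.92 ± 0.43 and -4.87 ± 0.73 (SD, 6 libraries each), with an exact permutation p of 0.03 that rose to 0.234 after adjustment. Before adjustment, p was 0.05 or lower for 12.8% of the 39 miRNAs in the root type contrast. For the other 4 members the smallest exact permutation p was 0.28.

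The levels of the members were then compared between LR-DS and LR-CT with edgeR, after TMM scaling. qrb-miR171d was higher and qrb-miR171c lower in LR-DS, whereas no difference was called for qrb-miR171a, qrb-miR171b and qrb-miR171e. An FDR of 0.05 was passed in this comparison by 32% of the 75 miRNAs, with 9.33% of the 75 higher and 22.7% lower, so 2 of 5 members is close to the background share. qrb-miR171d reached 2573, 2237 and 1148 CPM (counts scaled to a common library size with TMM factors) in LR-DS, against 63.0, 113 and 99.1 CPM in LR-CT. Every stressed library thus lay far above every watered one. Its log2FC of 4.47 (SE 0.55) had an FDR of 7.95e-05, the lowest of all miRNAs in that comparison (edgeR quasi-likelihood test).

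qrb-miR171c had 319, 214 and 169 CPM in LR-DS, against 551, 1373 and 1046 CPM in LR-CT. The groups did not overlap, and the log2FC was -2.08 (SE 0.53, FDR 0.00891, edgeR). For 14.7% of all miRNAs LR-DS lay wholly above LR-CT and for 32% wholly below it. Without LR-CT replicate 2 the log2FC of qrb-miR171c was -1.77 with an FDR of 0.0563, just past the threshold, and leaving out each library in turn gave -2.37 to -1.64. In 1 edgeR fit of all 12 libraries, which shares the wider taproot spread, no miRNA passed, and qrb-miR171d and qrb-miR171c both had an FDR of 0.188 with log2FC values of 4.47 and -2.09. The scaling moved the balance of the calls: 7 miRNAs were higher and 17 lower with TMM, 2 and 33 with library size alone, and 14 and 9 when the 16-nt row was left out of the library size. Under these and RLE factors qrb-miR171d kept a log2FC of 3.28 to 5.16 and qrb-miR171c one of -3.29 to -1.38, and both stayed under an FDR of 0.05.

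The other members showed smaller or less even differences in lateral roots. qrb-miR171a had 868, 585 and 4496 CPM in LR-DS, against 1623, 876 and 847 CPM in LR-CT. Only LR-DS replicate 3, the shallowest library, was high, and the log2FC of 0.82 (SE 0.66, FDR 0.358, edgeR) became -0.50 without it. qrb-miR171b had a log2FC of 0.25 (SE 0.56, FDR 0.773). qrb-miR171e was counted 20, 0 and 0 times in LR-DS, against 18, 84 and 64 times in LR-CT, with a log2FC of -1.41 (SE 1.23, FDR 0.396). Without LR-DS replicate 1, the only stressed lateral root library with counts of it, the fitted log2FC of qrb-miR171e was -8.13 (FDR 0.0372). LR-DS was then at 0 throughout, so that this size depends on the prior count and is no bound.

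In taproots no miRNA passed an FDR of 0.05 between TR-DS and TR-CT (0% of 75; 3 at an unadjusted p of 0.05 or lower, and the DESeq2 Wald test called 1). The groups of all 5 members overlapped; TR-DS lay wholly above TR-CT for 1.33% of all miRNAs and wholly below it for 2.67%. qrb-miR171d had 8001, 164 and 5022 CPM in TR-DS, against 62.1, 12.3 and 8334 CPM in TR-CT. Its log2FC of 1.32 had an SE of 1.90 (FDR 0.997, edgeR). Without TR-CT replicate 3 the log2FC was 7.46 with an FDR of 0.118. Leaving out TR-DS replicate 2 as well gave 8.01 and an FDR of 0.00185. These libraries were singled out with their qrb-miR171d values known, so that value is no independent support. qrb-miR171c had 192, 349 and 48.9 CPM in TR-DS, against 1508, 535 and 312 CPM in TR-CT, a log2FC of -1.35 (SE 1.03, FDR 0.997). qrb-miR171a, qrb-miR171b and qrb-miR171e had log2FC values of -0.46, 0.26 and -1.89, with SEs of 0.84, 1.27 and 2.14. Leaving out a library moved qrb-miR171a between -1.49 (without TR-CT replicate 1) and -0.06 (without TR-DS replicate 3). Without TR-DS replicate 2, which left TR-DS with no counts of qrb-miR171e, its fitted log2FC was -7.63 (FDR 0.551), again no bound. The common biological coefficient of variation was 1.08 in the taproot fit and 0.565 in the lateral root fit. A miss in taproots therefore does not show that the members were level.

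qrb-miR171e was counted in 7 of 12 libraries. In taproots it had 0, 10 and 0 counts in TR-DS, against 65, 35 and 0 counts in TR-CT. A count of 0 allows a share of up to 0.000808% and 0.000342% of the counts in TR-DS replicates 1 and 3 and of up to 0.000454% in TR-CT replicate 3, for counting error only. These 3 taproot libraries without it were the 3 in which qrb-miR171d led the family. Lateral roots did not repeat this. LR-DS replicate 1 was led by qrb-miR171d (64.5%) and had 20 counts of qrb-miR171e. LR-DS replicate 2 was led by qrb-miR171d and had 0 counts, and LR-DS replicate 3 was led by qrb-miR171a and also had 0.

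The drought effect over both root types, with root type as a covariate, called no miRNA (0% of 75; 15 at an unadjusted p of 0.05 or lower, and DESeq2 called 2). qrb-miR171c had a log2FC of -2.05 (SE 0.56) with an FDR of 0.0845, the lowest of the table in that edgeR fit. With DESeq2 the FDR of qrb-miR171c was 0.0492, and without TR-CT replicate 3 it was 0.0134 in edgeR. Over its alternatives the FDR of qrb-miR171c ranged from 0.00391 to 0.419. qrb-miR171d had a log2FC of 2.56 (SE 1.44, FDR 0.274), and 5.49 with an FDR of 0.00139 without TR-CT replicate 3. As above, that library was singled out with its qrb-miR171d values known, so the values without it are no independent support. The interaction, which asks whether the drought effect differed between root types, called none (0% of 75; 5 at an unadjusted p of 0.05 or lower, and DESeq2 called 1). For qrb-miR171d it was 3.82 (SE 2.25, FDR 0.656, edgeR), and -2.51 without TR-CT replicate 3. The different outcome in lateral roots and taproots was thus not shown to be a difference between them.

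The root types were also compared within each watering regime. Between LR-DS and TR-DS no miRNA passed (0% of 74; 4 at an unadjusted p of 0.05 or lower, and DESeq2 called none), and the groups of all 5 members overlapped, while LR-DS lay wholly above TR-DS for 6.76% of miRNAs and wholly below it for 0%. The largest of the members' values was a log2FC of 2.30 for qrb-miR171a (SE 1.01, FDR 0.756, edgeR), which was 0.61 without LR-DS replicate 3 and 1.05 without TR-DS replicate 3. Between LR-CT and TR-CT none passed either (0% of 75; 5 at an unadjusted p of 0.05 or lower, and DESeq2 called 1). LR-CT lay wholly above TR-CT for 16% and wholly below it for 5.33% of miRNAs, but for none of the 5 members. qrb-miR171d had a log2FC of -4.00 (SE 1.93, FDR 0.430), which was 1.39 without TR-CT replicate 3. With watering as a covariate, root type called none over all libraries (0% of 75; 6 at an unadjusted p of 0.05 or lower, and DESeq2 called none), and the members ranged from -3.05 for qrb-miR171d to 0.86 for qrb-miR171a. The value of qrb-miR171d rested on 1 library, since it was -0.14 without TR-CT replicate 3.

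**Figure D3:**
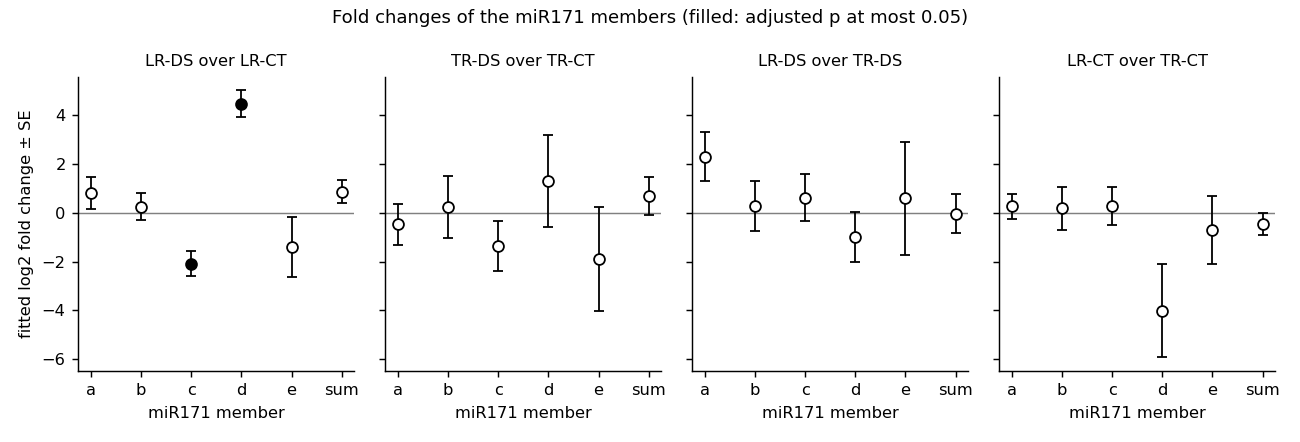
Fitted log2 fold changes with their SE (y axis) of members a to e and of their sum (x axis) in the 4 comparisons of 3 against 3 libraries; filled points had an edgeR FDR of at most 0.05. Only qrb-miR171d (4.47) and qrb-miR171c (-2.08) are filled, both for LR-DS over LR-CT.

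Summed over its members, the family made up 1.90%, 1.94% and 3.50% of the counts outside the 16-nt row in LR-DS, against 1.10%, 0.743% and 0.721% in LR-CT. Taken over all counts it made up 0.261%, 0.271% and 0.570% in LR-DS, against 0.431%, 0.490% and 0.376% in LR-CT. The direction of the family's percentage thus turned on whether the 16-nt row was counted. TMM scaling kept that row in the library size. With it the total lay at 11.9 to 12.8 log2 CPM in LR-DS, wholly above the 11.4 to 11.6 in LR-CT. Such a separation was seen for 14.7% of the 75 single miRNAs. The log2FC of the total was then 0.88 (SE 0.46, FDR 0.118, edgeR). It was -0.24 with library size alone (FDR 0.670) and 1.52 with the 16-nt row left out of the library size (FDR 0.0160). The total also passed without LR-DS replicate 1 (1.34, FDR 0.0398) and without LR-DS replicate 3 (0.81, FDR 0.0147). In taproots the total had a log2FC of 0.67 (SE 0.78, FDR 0.965), and 1.67 without TR-CT replicate 3 (FDR 0.352). Leaving out TR-DS replicate 2 as well gave a called 2.08 (FDR 0.00234) in taproots and 1.23 (FDR 0.00868) for drought over both root types, with the reservation given above on how these libraries were chosen. With all libraries, TMM and edgeR, no change of the total was called in the other 5 comparisons, with log2FC values between -0.68 and 0.79.

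The sequence-named row closest to the listed miR171 sequences did not follow qrb-miR171d. It was counted 171, 119 and 32 times in LR-DS, against 674, 1031 and 1507 times in LR-CT, that is 3.50% to 7.25% of the family count in LR-DS and 20.5% to 37.9% in LR-CT. Its log2FC between them was -1.57 (SE 0.50, FDR 0.0292, edgeR), and the FDR was 0.109 without LR-CT replicate 2 and 0.189 without LR-CT replicate 3. In taproots the row had 67, 49 and 119 counts in TR-DS, against 255, 87 and 108 counts in TR-CT, and a log2FC of -0.10 (SE 0.83, FDR 0.997). Whether reads of a shared sequence were split between this row and the lettered members was not tested.

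The profiles of the members over the 12 libraries were set beside each other as the root mean square difference of their centred log2 CPM, for which smaller values mean more alike profiles. Within the family qrb-miR171c and qrb-miR171e were the most alike, at 1.22, and qrb-miR171d and qrb-miR171e the least, at 4.89. qrb-miR171d and qrb-miR171c differed by 4.17. With an SD of 3.23 over the libraries, qrb-miR171d varied more than any other of the 75 miRNAs, whose median SD was 1.32. Its nearest profiles were qrb-miR393a (1.33), whose family targets the auxin receptor genes, and qrb-miR166c (1.78), whose family targets HD-ZIP III genes, against a median of 3.46 to all others.

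qrb-miR171c lay nearest to a row with the sequence uuagauucacgcacaaacucu (0.539) and to qrb-miR319a (0.599), of a family that targets TCP genes. qrb-miR171a lay nearest to 2 rows known by sequence, cuucuguuagcucuuaugga (0.549) and accguguuucucuguauaacg (0.568). qrb-miR171b lay nearest to qrb-miR166e (0.732) and to qrb-miR160b (0.737), of a family that targets auxin response factors. qrb-miR171e lay nearest to qrb-miR2111a (1.16). The libraries share depth and scaling between miRNAs, so these values are descriptions.

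Between LR-DS and LR-CT the members of miR171 spanned 6.56 log2 units, the second widest span of the 7 families with at least 3 members, after miR156. Of the other families that large, miR156, miR166 and miR395 also had calls in this comparison, and only miR166 shared with miR171 calls in both directions. Between TR-DS and TR-CT the span of miR171 was 3.21, the fourth of 7. A list of 11 other families with known roles in meristems and roots, such as miR160 and miR396, held 29 miRNAs. In lateral roots 3 of the 29 were called higher and 5 lower under drought, against 7 higher and 17 lower (32%) of all 75 miRNAs. The median log2FC was 0.01 over the list and -0.29 over all 75. The 5 miR171 members had 1 call in each direction and a median of 0.25, beside the same 32% called over the table.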

How the data were processed

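The values were whole read counts per miRNA, which the authors deposited without normalization. Per the methods they trimmed small RNA reads with Cutadapt, checked them with FastQC and counted them with ShortStack against miRBase sequences. The submitters' processing notes also name Bowtie and HISAT2. Tool versions were not given in the sources used here. Groups and replicate numbers came from the titles. The titles call the replicates biological but do not say whether they came from separate plants, so p-values measure the spread between libraries.

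Each comparison was fitted with edgeR 4.0.16 in R 4.3.3 (TMM, quasi-likelihood F test, at least 1 count over its libraries, Benjamini-Hochberg adjustment over all miRNAs, threshold 0.05). The SE is the absolute log2FC divided by the square root of F. Within-family odds used an added count of 0.5 and exact permutation tests (Python 3.11.15), with p-values adjusted over all 78 such tests in place of the 5 members that had been planned. CPM and log2 CPM used TMM factors over 12 libraries and a prior count of 2. Family totals were sums of counts, and their FDR was adjusted over all families and sequence-named rows in place of the single miRNAs. The 3 sequences and 4 sites came from the study's supplementary table. The names follow a fixed rule: the 5 members, sequence-named rows with at least 17 identical bases at an offset of at most 3, and for each member the 2 nearest profiles. DESeq2 1.42.0, other scalings, a filter, the replicate block and left-out libraries were alternatives. Both tests were tested on simulated data. The simulated log2 odds were less spread than those of qrb-miR171d in taproots, so power at that spread was not tested. Members, lists and alternatives were chosen with earlier results of these data known. Gene expression, degradome and hormone data were not analysed here. Limits for counts of 0 took 3 counts and cover counting error only, since PCR copies were not removed by molecular identifiers.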

Additional observations from a re-analysis of the deposited data

How the results depend on the processing

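The higher level of qrb-miR171d in LR-DS than in LR-CT passed under every alternative but the fit of all 12 libraries. Its log2FC was 4.26 to 5.04 when a library was left out. For the counts of called miRNAs, library size alone gave 1 in taproots, 1 for root type when watered, 5 for drought over both root types and 1 for the interaction, DESeq2 gave 1, 1, 2 and 1 in the same comparisons, and the fit of all 12 libraries gave 0 in lateral roots. Whether same-numbered libraries belong together is not stated in the titles, and their correlations ran from -0.30 to 0.68. For drought in taproots they were -0.29, 0.68 and 0.32. The replicate block thus rests on a pairing that was not established, and calls made with it are no added support. With the replicate block 2 miRNAs were called in taproots, 6 over both root types and 1 for the interaction, 17 in lateral roots, and qrb-miR171d had a log2FC of 4.17 in taproots (edgeR FDR 0.00107). Over both root types the replicate block brought qrb-miR171d (4.19, FDR 0.00263) and qrb-miR171c (-2.10, FDR 0.0137) under the threshold.

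When libraries were left out (1 in turn, or TR-CT replicate 3 with TR-DS replicate 2), the counts ran from 0 to 7 in taproots, 14 to 32 in lateral roots, 0 to 2 for root type in either regime, 0 to 22 for drought over both root types and 0 to 1 for the interaction. The log2FC of the family total ran from 0.10 to 2.08 in taproots, 0.81 to 1.34 in lateral roots, 0.26 to 1.23 for drought over both, -0.51 to 0.34 and -0.61 to 0.12 for root type under drought and when watered, and -0.89 to 1.44 for the interaction. That of qrb-miR171a in lateral roots ran from -0.50 to 1.43, of qrb-miR171b in taproots from -0.39 to 2.95, of the sequence-named row in taproots from -0.36 to 0.050 (without the 2 libraries together), and of qrb-miR171d from -4.57 to 1.39 for root type when watered and from -3.07 to 4.58 for the interaction. The differences in log2 odds ran from -0.48 to 0.15 for qrb-miR171b under drought, and between root types from -2.08 to 0.27 for qrb-miR171d and -0.46 to 2.01 for qrb-miR171e.

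The family total in lateral roots was -0.24 with library size alone, 1.08 with RLE factors and with DESeq2, 1.52 without the 16-nt row and 1.07 with factors of the table of families. For root type under drought it was 0.42 without the 16-nt row and 0.26 with the replicate block, and with library size alone 0.30 for root type when watered and -0.60 for the interaction. In lateral roots library size alone gave -0.19 for qrb-miR171a and -0.88 for qrb-miR171b. qrb-miR171b was -0.34 in taproots in the fit of all 12 libraries, and the sequence-named row 0.053 there with RLE factors and 0.053 with DESeq2. As a share of family counts, qrb-miR171e differed by -0.51 percentage points between root types. The causes were not tested. qrb-miR171e had 0 counts in 5 libraries, of 160039 to 876789 counts in total.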
